A study of Mus musculus with 12 samples.

Results

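The genes that sense DNA damage and repair DNA are described here in the small intestine of fed and fasted mice. They were chosen by a rule on their names that used no measured values, but it was set with earlier results of these data known. The paper had already named Atm, Polb, Nbn and Mre11a as changed by fasting. A probe was taken if the 12 h array files named it as a gene of a fixed set of families: the Rad, Xrcc, Ercc, Xpa, Xpc and Ddb genes, a set of mismatch repair genes that includes Msh3, Msh5 and Msh6, the Brca and Fanc genes, the poly(ADP-ribose) polymerases (Parp, listed under the older name Adprt), DNA ligases 1, 3 and 4, the Gadd45 genes, Ung, Ogg1 and the Apex genes, together with Atm, Polb, Nbn, Mre11a and Trp53. The rule found 54 probes of 42 genes among the 20280 probes tested, and 11 of these genes had more than 1 probe.

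Male FVB mice aged 6 weeks either had food or had chow removed for 12, 24 or 72 h. The full-thickness small intestine was taken, so that epithelium, muscle, blood vessels and immune cells were measured together, and a lower level of an mRNA in such tissue cannot be told apart from fewer cells that carry it. Each of 3 arrays per time point carried Cy3-labelled cDNA from a pool of 2 mice, and the same reference, Cy5-labelled cDNA from a pool of 6 fed mice, was hybridized to all 12 arrays. The fed mice were thus both the sample of the fed arrays and the reference of all of them. Of the 3 fed arrays, replicate 3 has a label that gives only its own pair of mice as the reference. Housing was in metabolic cages, with a heat lamp once a fast had reached 24 h.

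Cells repair DNA by several routes that share little beyond their last steps. Base excision repair removes damaged or wrong bases, and mismatch repair corrects copying errors. Nucleotide excision repair cuts out bulky lesions such as those made by ultraviolet light. Double-strand breaks are mended either by copying from the sister chromatid (homologous recombination) or by direct joining of the ends. Damage is first reported by kinases and clamps that act on p53 and the cell cycle. In the intestine the rapidly dividing crypt cells are known for their sensitivity to DNA damage, which they answer with p53-dependent arrest or cell death.

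The unit throughout is the log2 ratio of Cy3 over Cy5 after background correction and quantile normalization. A change is the difference of 2 such group means, and it is called where limma's moderated test gave a Benjamini-Hochberg adjusted p under 0.05 over all probes. Median foreground intensities were 166.5 to 295.5 in Cy3 and 124 to 627 in Cy5, and Cy5 exceeded its local background by 1.65 to 2.11 times. The files came in 2 formats, of which the first covers fed and 72 h tissue, with Cy5 medians of 124 to 142, and the second covers 12 h and 24 h, with Cy5 medians of 392 to 627. In the contrasts of 12 h or 24 h with fed or with 72 h the fasting time therefore cannot be told apart from the format, whereas 72 h against fed and 24 h against 12 h lie within a format. On 12 h replicate 1, 5.42% of spots were marked as outliers by the scanner software, against 0.212 to 1.22% on the other 11 arrays. Of the marker probes, 5 of 5 for enterocytes and 3 of 3 for goblet and Paneth cells were well above background on all 12 arrays. So were 2 of 2 for exocrine pancreas, 5 of 6 for smooth muscle, 6 of 8 for B and plasma cells and 3 of 5 for T cells. Detection alone therefore does not single out a tissue.

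Most of the 54 probes changed little (the plot by role). After 12 h of fasting 1 probe was called, which was lower than in fed tissue, where 10.9% of all probes were called, 4.9% higher and 6.02% lower. After 24 h 1 probe was higher and 1 was lower, where 10.1% of all probes were called, 3.79% higher and 6.26% lower. After 72 h 1 was higher and 2 were lower, where 10.6% of all probes were called, 4.8% higher and 5.8% lower. With an unadjusted p under 0.01 and at least 1.4-fold, 3, 4 and 3 members passed in these contrasts, against 13.9%, 13.1% and 13.1% of all probes. The arrays of the fasted and fed groups did not overlap for 16, 21 and 22 members, against 30.8%, 40.4% and 41.8% of all probes. The middle of the distribution stayed close to 0, with a median change of -0.04 at 12 h, 0.02 at 24 h and -0.06 at 72 h, while the medians of all probes were -0.02, 0.02 and 0.01. A change of less than 1.4-fold in either direction was found for 77.8% of the members at 12 h, 83.3% at 24 h and 88.9% at 72 h, and for 75.3%, 77.8% and 79.2% of all probes. The F-test over the 3 contrasts passed for 10 of the 54 probes, against 24.9% of all probes. It was lowest for Ercc1 (adjusted p = 0.00617 by limma) and Atm (adjusted p = 0.0134), which are described first within their groups.

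**Figure D1:**
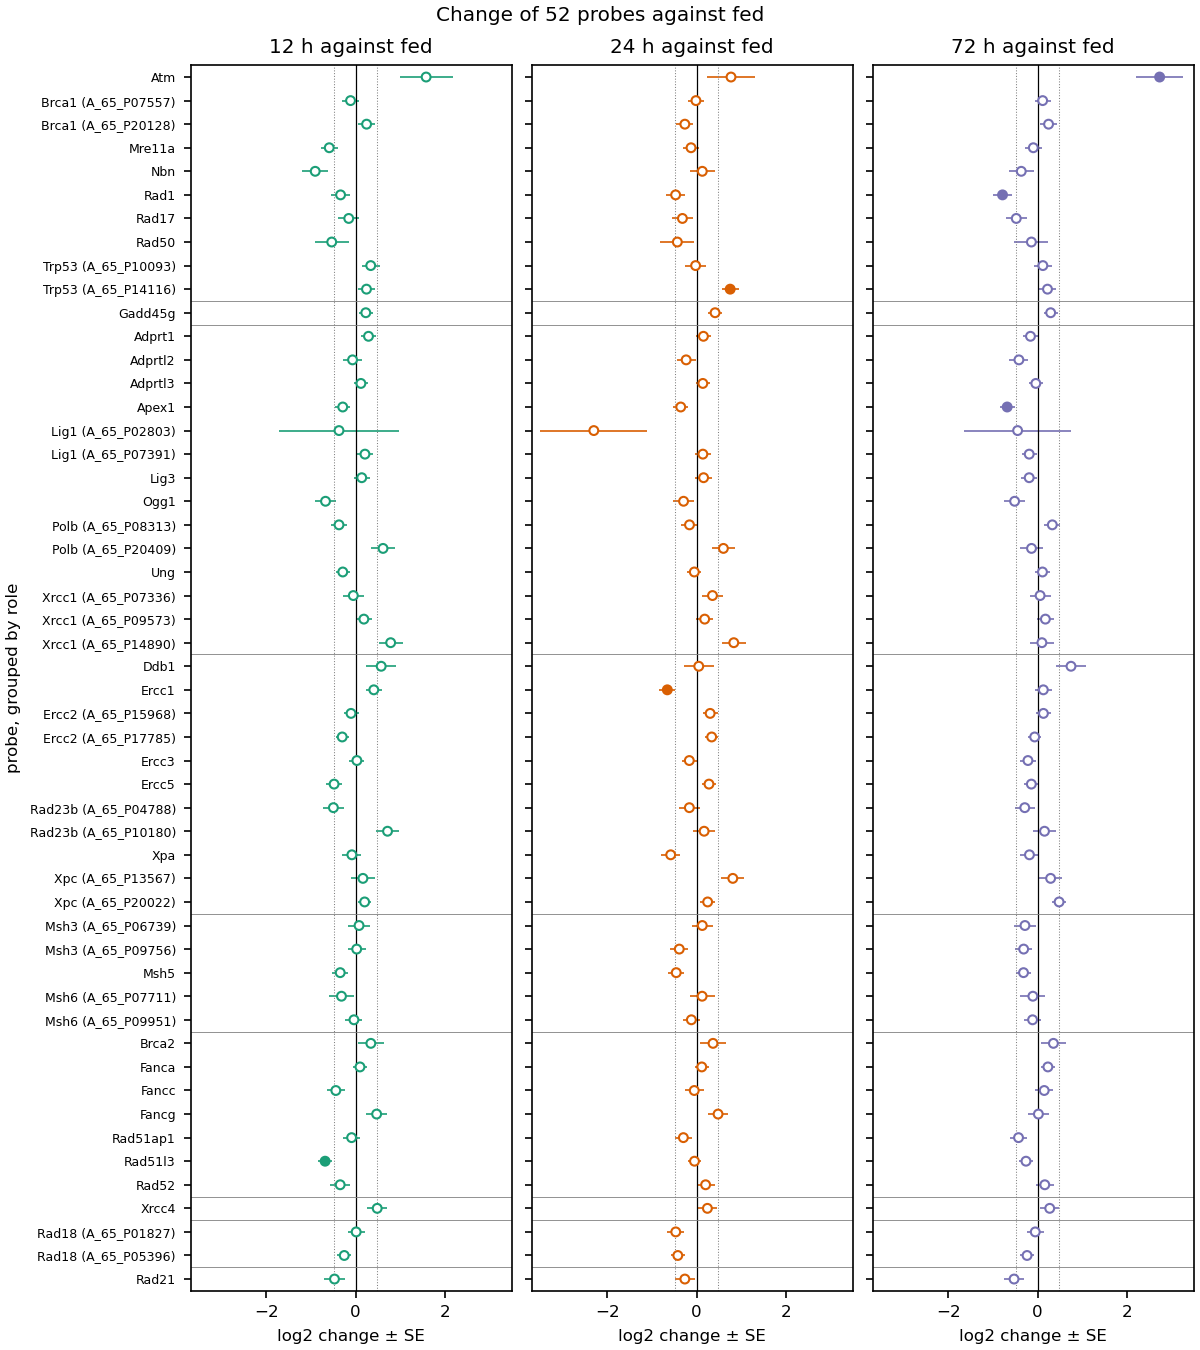
Log2 change against fed of 52 of the 54 probes after 12, 24 and 72 h of fasting, with standard errors from the limma fit, in blocks by role from the damage sensors at the top to cohesin at the bottom. Filled points were called, and dotted lines mark 1.4-fold. Atm at 72 h lies far to the right of all the others, and 41, 44 and 46 of the 52 points lie between the dotted lines.

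**Figure D2:**
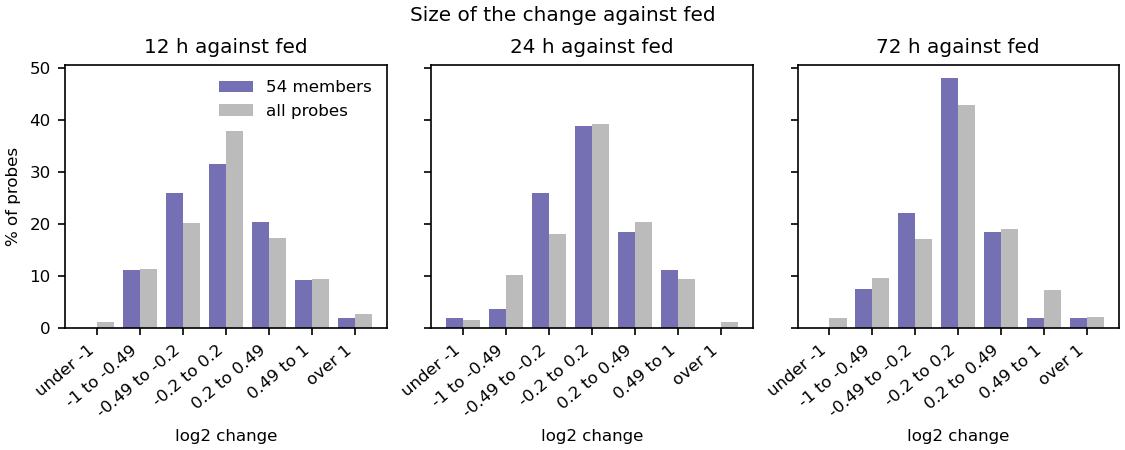
Share of the 54 members and of all probes (y axis, % of probes) in classes of the log2 change against fed (x axis). The classes beyond 1.4-fold hold no larger a share of the members than of all probes at 72 h, where 48.1% of members and 42.9% of all probes lie between -0.2 and 0.2.

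The RefSeq promoter windows (assembly GRCm38.p6) are shown for the 3 genes called at 72 h against fed and for Ercc1, which gave the lowest p over the time course. Each window holds 250 bases before and 50 bases after the transcription start and is written 5' to 3' on the strand of the gene. Capitals mark the GC box GGGCGG and the CCAAT box CCAAT, searched on both strands, so that a box on the other strand appears as its reverse complement.

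Atm, chr9:53536622-53536921, minus strand: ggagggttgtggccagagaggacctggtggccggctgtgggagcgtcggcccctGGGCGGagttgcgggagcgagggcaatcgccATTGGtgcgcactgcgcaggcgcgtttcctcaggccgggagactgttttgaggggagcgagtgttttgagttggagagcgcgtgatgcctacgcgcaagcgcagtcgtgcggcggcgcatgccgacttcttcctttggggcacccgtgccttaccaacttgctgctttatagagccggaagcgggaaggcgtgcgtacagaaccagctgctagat
Rad1, chr15:10485768-10486067, plus strand: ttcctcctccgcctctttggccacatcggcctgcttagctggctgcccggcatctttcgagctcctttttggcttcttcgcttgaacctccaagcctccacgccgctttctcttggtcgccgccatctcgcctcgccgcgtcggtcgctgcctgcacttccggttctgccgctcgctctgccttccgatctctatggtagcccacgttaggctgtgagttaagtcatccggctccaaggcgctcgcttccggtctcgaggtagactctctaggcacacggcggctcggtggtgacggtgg
Apex1, chr14:50924699-50924998, plus strand: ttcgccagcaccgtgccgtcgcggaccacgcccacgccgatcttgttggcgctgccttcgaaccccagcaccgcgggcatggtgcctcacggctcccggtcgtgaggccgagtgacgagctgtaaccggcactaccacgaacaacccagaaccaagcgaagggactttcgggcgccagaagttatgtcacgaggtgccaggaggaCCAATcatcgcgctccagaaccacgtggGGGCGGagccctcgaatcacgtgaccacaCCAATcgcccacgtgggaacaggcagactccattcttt
Ercc1, chr7:19344821-19345120, plus strand: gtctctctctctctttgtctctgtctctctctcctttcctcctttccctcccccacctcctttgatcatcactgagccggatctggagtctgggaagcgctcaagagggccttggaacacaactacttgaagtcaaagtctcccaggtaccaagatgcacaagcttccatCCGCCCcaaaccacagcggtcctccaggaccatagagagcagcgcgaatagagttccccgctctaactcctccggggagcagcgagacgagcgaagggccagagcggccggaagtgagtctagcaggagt

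The Atm, Apex1 and Ercc1 windows hold 1 GC box each, and CCAAT boxes are found in the Atm window (1) and the Apex1 window (2). Atm, which rose, and Apex1, which fell, both have the 2 kinds of box, and neither is in the Rad1 window, for which RefSeq also gives a second start with a window at chr15:10485788-10486087. Of the 42 genes, 33 matched an entry, with 37 windows, and 54.1% of these windows held a GC box and 48.6% a CCAAT box, against 35.7% and 37.4% of all 32851 windows. The E2F site TTTCCCGC was found in the windows of Brca2, Fancg, Msh5 and Msh6, or 10.8% of member windows against 1.07% of all. No member window held a p53 response element of abutting half-sites, which 0.00913% of all windows did. Such matches describe the letters of a window and do not show a bound factor.

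Atm, the kinase that reports double-strand breaks to p53 and to the checkpoint kinases, rose most of all members. Its log2 ratios were 0.37, 0.78 and -1.30 on the fed arrays, 0.51 and 2.55 on the 12 h arrays with a value, 0.88, 0.34 and 0.94 at 24 h, and 2.87, 2.07 and 3.11 at 72 h. All 72 h values lay above all fed and all 24 h values. Of the 12 h values, 0.51 lay within the fed range and 2.55 within the 72 h range. At 72 h Atm was higher than in fed tissue by 2.74 ± 0.53 (SE) on the log2 scale, or 6.66-fold (adjusted p = 0.00554 by limma, n = 3 against 3). The change lay in the sample channel, since Cy3 rose by 2.81 and Cy5 differed by 0.08. Fed replicate 3, whose label gives only its own pair of mice as the reference, was the single low fed array. Its Cy3 signal was not well above background. Without that array the 72 h change was 2.11, still called at an adjusted p of 0.0288 by limma, and over the 14 alternatives tried the adjusted p ranged from 0.00219 to 0.0340. The spot was marked as an outlier on 12 h replicate 1 and has no value there.

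**Figure D3:**
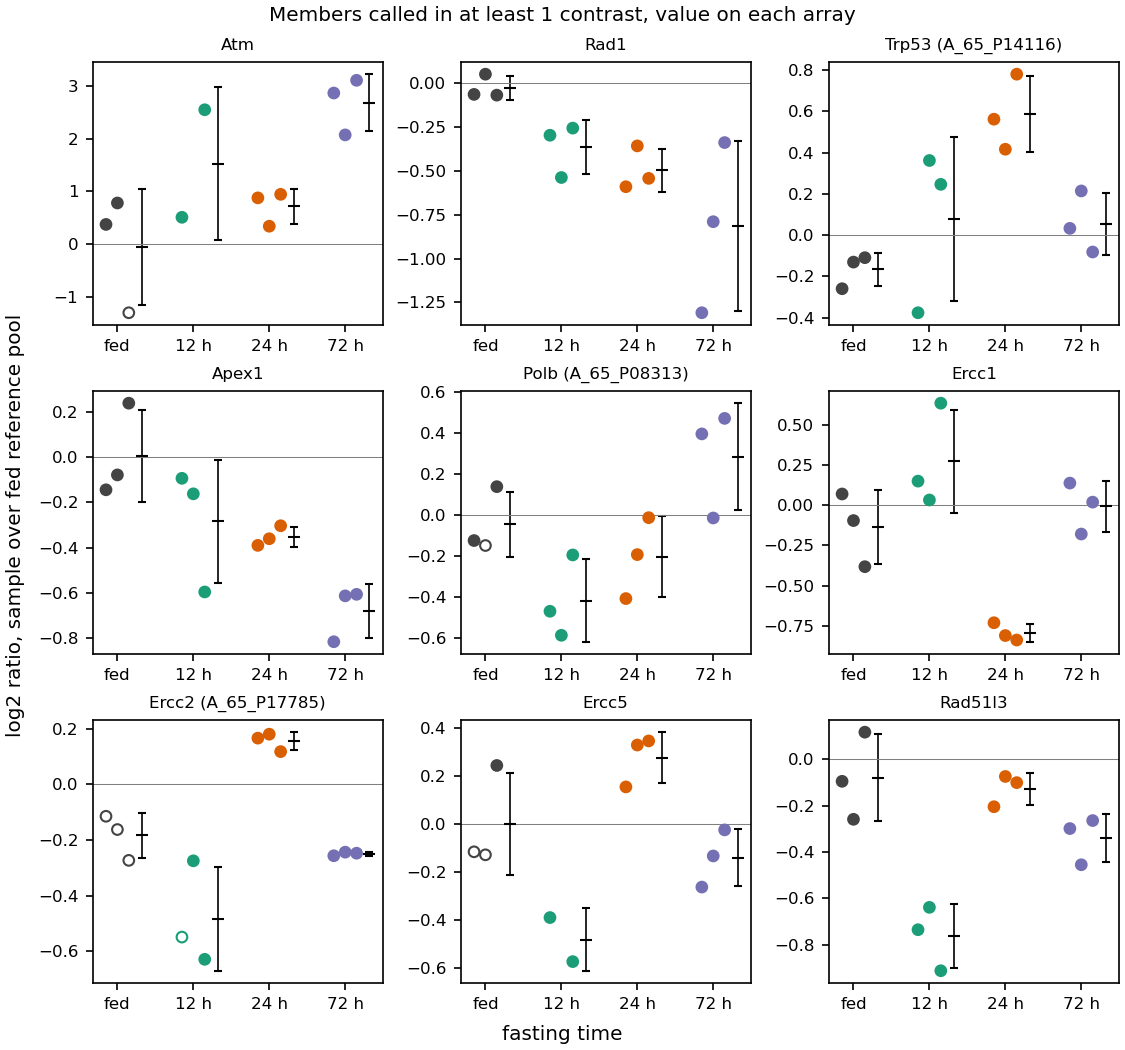
Log2 ratio of sample over the fed reference pool (y axis) on each of the 3 arrays per fasting time (x axis) for the 9 probes called in at least 1 of the 6 contrasts, with the group mean and SD beside the points. Open points were not well above background in Cy3, and each panel has its own scale. Atm is highest at 72 h, Apex1 and Rad1 are lowest there, and Ercc1 is lowest at 24 h.

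Atm was also higher at 72 h than at 24 h, by 1.96 ± 0.53 (SE) on the log2 scale (adjusted p = 0.0331 by limma). Cy3 alone differed there by 1.27 (adjusted p = 0.0966) and Cy5 by -0.70, in a comparison that crosses the file formats. The call was lost without any 1 of the 24 h arrays (adjusted p = 0.0747 to 0.115) or without 72 h replicate 1 or 3 (adjusted p = 0.127 and 0.119), with changes of 1.75 to 2.08, and also with median centring (1.99, adjusted p = 0.0547) and the replicate block (adjusted p = 0.0621). At 12 h its change against fed was 1.58 ± 0.59 (SE, adjusted p = 0.104 by limma) with 2 arrays. Without 12 h replicate 2 the lone array left, replicate 3, gave 2.60. On that array Cy3 was 8.99, beside 9.03, 8.96 and 6.59 on the fed arrays. Its Cy5, the fed reference, was 6.44, beside 8.66, 8.18 and 7.89 on the fed arrays. At 24 h the change was 0.77 ± 0.53 (adjusted p = 0.372). In Cy3 alone it was 1.55 and called (adjusted p = 0.0345 by limma), where 24.6% of all probes were called. The mean Cy5 of this probe was 9.02 at 24 h and 8.24 on the fed arrays.

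Rad1, a part of the ring-shaped clamp that is loaded at damaged DNA, fell at 72 h. The fed log2 ratios were -0.06, 0.05 and -0.07 and those at 72 h were -1.31, -0.79 and -0.34, with 12 h values of -0.30, -0.54 and -0.26 and 24 h values of -0.59, -0.36 and -0.54. Every fasted array lay below every fed array, and the 72 h arrays were spread more widely than the others. The change at 72 h was -0.79 ± 0.21 (SE, 1.72-fold, adjusted p = 0.0253 by limma). Cy3 alone gave -0.69 (adjusted p = 0.0752), and the call was also lost without any 1 of the 3 fed arrays (-0.75 to -0.81, adjusted p = 0.0680 to 0.0737 by limma) or without 72 h replicate 1 (-0.54, adjusted p = 0.141) or 2 (-0.80, adjusted p = 0.0683). Rad17, whose product helps to load the clamp, changed by -0.48 ± 0.24 (SE) at 72 h and was not called (adjusted p = 0.230 by limma).

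For p53, the transcription factor on which damage signals converge, the 2 probes gave different results. The probe A_65_P14116 had fed log2 ratios of -0.26, -0.13 and -0.11 and 24 h ratios of 0.56, 0.42 and 0.78, and was called higher at 24 h by 0.75 ± 0.19 (SE, 1.68-fold, adjusted p = 0.0264 by limma). These groups did not overlap, but Cy3 changed by 0.02 and the fed reference in Cy5 by -0.73. The call was lost without any 1 of the fed arrays or without 24 h replicate 1 or 3 (0.66 to 0.78, adjusted p = 0.0585 to 0.0952 by limma). The probe A_65_P10093 had -0.09 and -0.06 on the 24 h arrays with a value, within the fed values of 0.01, -0.02 and -0.14, and changed by -0.02 ± 0.23 (SE). At 12 h and 72 h neither Trp53 probe was called, with changes of 0.12 to 0.34 on the log2 scale. Without 12 h replicate 3, A_65_P10093 was called at 12 h (0.60, adjusted p = 0.0312 by limma). The probe A_65_P14116 carries the name of a clone in the fed files, not that of Trp53.

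The complex of Mre11a, Rad50 and Nbn binds broken DNA ends and activates the Atm kinase. Nbn was at -0.31, -0.74 and -1.82 on the 12 h arrays and at -0.13, -0.26 and 0.24 on the fed arrays, a change of -0.91 ± 0.29 (SE, adjusted p = 0.0557 by limma). This change was called in Cy3 alone (-0.64, adjusted p = 0.0355 by limma) and with median centring (-0.67, adjusted p = 0.0494). Of all probes, 15% and 14.9% were called there. Mre11a was at -0.15, -0.48 and -0.87 at 12 h and at -0.03, 0.08 and 0.22 in fed tissue, a change of -0.59 ± 0.19 (SE, adjusted p = 0.0576). For both genes all 12 h arrays lay below all fed arrays. Rad50 changed by -0.54 ± 0.38 (SE) and was not called. At 24 h against fed, Cy3 alone called Mre11a (-0.53, adjusted p = 0.0323 by limma) and Rad50 (-0.73, adjusted p = 0.0142), where 24.6% of all probes were called. The fed reference in Cy5 was also lower there, at 6.58 against 6.98 on the fed arrays for Mre11a and 7.04 against 7.33 for Rad50. Neither ratio was called at 24 h, and this contrast crosses the file formats. At 72 h the values of Mre11a were 0.10, -0.10 and -0.02 and its change was -0.10, while Nbn stood at -0.51, -0.31 and -0.44 with a change of -0.37, neither of them called.

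Leaving out 12 h replicate 1, the array with the most outlier spots, raised the number of members called at 12 h against fed to 7, and of all probes to 22.6%. Nbn (-1.23, adjusted p = 0.00736 by limma) and Mre11a (-0.76, adjusted p = 0.0127) were then among the 5 lower ones, together with Rad52, Ogg1 and Rad51l3. Rad52 has no value on 12 h replicate 2, so that its 12 h value was then a single array (-0.83), with the spread taken from the other groups. Against 24 h and 72 h, the same omission gave 8 and 9 called members beside 7.35% and 16.2% of all probes. The part of that array in these counts was not tested further.

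Brca1, which joins the checkpoint to recombination, had 1 probe that was not well above background on any fed array (A_65_P20128). Its Cy3 signal was at least 2.21-fold higher at 12 h, at least 1.57-fold at 24 h and at least 1.28-fold at 72 h, taken against the lowest signal well above background on each fed array. For these bounds Cy3 was taken after loess within each array and quantile normalization of the average intensity of the channels, not on the scale of the main fit. The Cy5 signal of this probe was also higher at 12 h and 24 h, and the ratios changed by 0.25, -0.26 and 0.25 on the log2 scale without a call (adjusted p = 0.413, 0.386 and 0.462 by limma). The other Brca1 probe changed by -0.11 to 0.11. Gadd45g, the member of the Gadd45 family of stress-induced growth arrest genes that the rule found, was at -0.14, -0.13 and -0.32 in fed tissue and at 0.21, 0.28 and 0.16 at 24 h. Its groups did not overlap there, and the change of 0.41 ± 0.15 (SE) was not called (adjusted p = 0.103 by limma). At 72 h it stood at 0.17, -0.04 and 0.16.

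Of the 14 base excision and strand break probes, none was called at 12 h or 24 h and 1 at 72 h, beside 10.9%, 10.1% and 10.6% of all probes. This was Apex1, the endonuclease that cuts the strand where a base has been removed. Its log2 ratios were -0.14, -0.08 and 0.24 in fed tissue and -0.82, -0.61 and -0.61 at 72 h. The 12 h arrays gave -0.09, -0.16 and -0.60, and the 24 h arrays -0.39, -0.36 and -0.30. All 72 h arrays lay below all other arrays, though close to 12 h replicate 3. The change at 72 h was -0.68 ± 0.17 (SE, 1.60-fold lower, adjusted p = 0.0194 by limma). In Cy3 it was -0.49 (adjusted p = 0.0878) and in Cy5 0.19, and the call was lost without fed replicate 3 (-0.57, adjusted p = 0.0852 by limma) or without 72 h replicate 1 (-0.61, adjusted p = 0.107).

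Polb, the polymerase that fills the short gap left in this pathway, had 2 probes whose changes against fed were of opposite sign. A_65_P08313 was at -0.12, -0.15 and 0.14 in fed tissue and at 0.40, -0.01 and 0.47 at 72 h. The 12 h arrays gave -0.47, -0.59 and -0.19, all below the 72 h arrays, and the 24 h arrays -0.41, -0.19 and -0.01. It was higher at 72 h than at 12 h by 0.70 ± 0.18 (SE, adjusted p = 0.0243 by limma) in a contrast where 10.8% of all probes were called, and this change was 0.69 in Cy3 and -0.01 in Cy5. It was not called without 12 h replicate 2 or without 72 h replicate 1 or 3 (0.61 to 0.65, adjusted p = 0.0658 to 0.110 by limma), in the software's own ratio (0.84, adjusted p = 0.0713), with median centring (0.65, adjusted p = 0.0985) or with only the arrays compared (adjusted p = 0.0894). Its changes against fed were -0.37, -0.16 and 0.33, none of them called, and those of the other probe were 0.61, 0.60 and -0.14. A_65_P20409 was at -0.56, -0.64 and -0.26 at 72 h and at -0.21, 0.15 and 0.86 at 12 h, and was not called in any contrast over all 12 arrays. Without 12 h replicate 1 it was called at 12 h against fed (0.85, adjusted p = 0.0304 by limma) and at 72 h against 12 h (-0.99, adjusted p = 0.0211), and with only the arrays compared at 72 h against 24 h (-0.74, adjusted p = 0.00514). Its fed values of 0.00, -0.18 and -0.86 covered the 72 h range. Both Polb probes carry clone names in the fed files.

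Xrcc1, the scaffold on which the enzymes that mend single-strand breaks assemble, had 3 probes. Only A_65_P14890 passed the F-test (adjusted p = 0.0449 by limma), with changes of 0.79, 0.83 and 0.10 after 12, 24 and 72 h, while Cy3 alone changed by -0.18, 0.05 and -0.03. The poly(ADP-ribose) polymerases Adprt1, Adprtl2 and Adprtl3, now called Parp1, Parp2 and Parp3, which mark breaks with a polymer that recruits Xrcc1, changed by -0.42 to 0.29 and were not called. Of the glycosylases that take out damaged bases, Ogg1, which removes oxidized guanine, was at -0.69, -0.47 and -0.67 at 72 h and -0.01, -0.31 and 0.04 in fed tissue. This change of -0.52 ± 0.23 (SE) was not called over all 12 arrays (adjusted p = 0.184 by limma), and Ung, which removes uracil, changed by -0.29 to 0.11. For DNA ligase 1 the probe A_65_P02803 stood at -6.45 on 24 h replicate 1 and at -0.05 and 0.27 on the other 24 h arrays, so that its SE of 1.20 was far above that of the second Lig1 probe (0.17).

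Ercc1 was the nucleotide excision repair gene with the clearest course. It forms, with Ercc4, the nuclease that cuts on the 5' side of a lesion. Its log2 ratios were 0.07, -0.10 and -0.38 in fed tissue and 0.15, 0.03 and 0.63 on the 12 h arrays. After 24 h they were -0.73, -0.81 and -0.84, and after 72 h 0.14, -0.18 and 0.02. The 24 h arrays lay below every other array and close to each other. Ercc1 was lower at 24 h than in fed tissue by -0.66 ± 0.18 (SE, 1.58-fold, adjusted p = 0.0367 by limma), with a Cy3 change of -0.60 (adjusted p = 0.0149) and a Cy5 change of 0.05. That call was lost without fed replicate 1 or 2 (-0.55 and -0.64, adjusted p = 0.139 and 0.103 by limma) and without any 1 of the 24 h arrays (-0.63 to -0.69, adjusted p = 0.0861 to 0.0942), and also without background correction (-0.38, adjusted p = 0.0702) and with the replicate number as a block (adjusted p = 0.0563). It was lower at 24 h than at 12 h by -1.06 ± 0.18 (SE, 2.09-fold, adjusted p = 0.00811), where 4 members and 2.92% of all probes were called, and there Cy3 changed by -0.32 and Cy5 by 0.75. This difference was called with each array of the 2 time points left out in turn, but not without background correction (-0.49, adjusted p = 0.0572 by limma), in Cy3 alone (adjusted p = 0.215) or with only the arrays compared (adjusted p = 0.101). From 24 h to 72 h it was higher by 0.79 ± 0.18 (SE, adjusted p = 0.0159), 1 of 2 members called in a contrast with 10.6% of all probes, and this call was lost without 24 h replicate 2 or 3 or 72 h replicate 1 or 3 (0.71 to 0.78, adjusted p = 0.0534 to 0.0871) and in Cy3 alone (0.43, adjusted p = 0.0782). The change at 72 h against fed was 0.13.

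Ercc2, a helicase of the factor TFIIH that opens DNA around a lesion, and Ercc5, the nuclease that cuts on its 3' side, were called between 12 h and 24 h. The Ercc2 probe A_65_P17785 was at -0.55, -0.27 and -0.63 at 12 h and at 0.17, 0.18 and 0.12 at 24 h, a change of 0.64 ± 0.14 (SE, adjusted p = 0.0287 by limma) of which 0.19 was in Cy3. It was not well above background on any fed array, nor on 12 h replicate 1. Ercc5 was at -0.39 and -0.57 on the 12 h arrays with a value and at 0.16, 0.33 and 0.35 at 24 h, a change of 0.76 ± 0.18 (SE, adjusted p = 0.0386), with 0.46 in Cy3. Without any 1 of the 24 h arrays neither call was kept, at 0.63 to 0.66 for Ercc2 (adjusted p = 0.0790 to 0.100 by limma) and 0.72 to 0.82 for Ercc5 (adjusted p = 0.0649 to 0.119), and Ercc5 was not called without 12 h replicate 2 (0.85) or 3 (0.67). Both calls were also lost without background correction, in the software's own ratio, with median centring, in Cy3 alone, with the replicate block and with only the arrays compared (adjusted p = 0.0515 to 0.577 by limma), and that of Ercc2 with loess (adjusted p = 0.0728), so that 4 and 3 of the 14 alternatives kept them. Neither was called against fed at any time. The remaining nucleotide excision probes, including Xpa and Xpc, which recognise lesions, ranged from -0.58 to 0.81 against fed with no call.

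**Figure D4:**
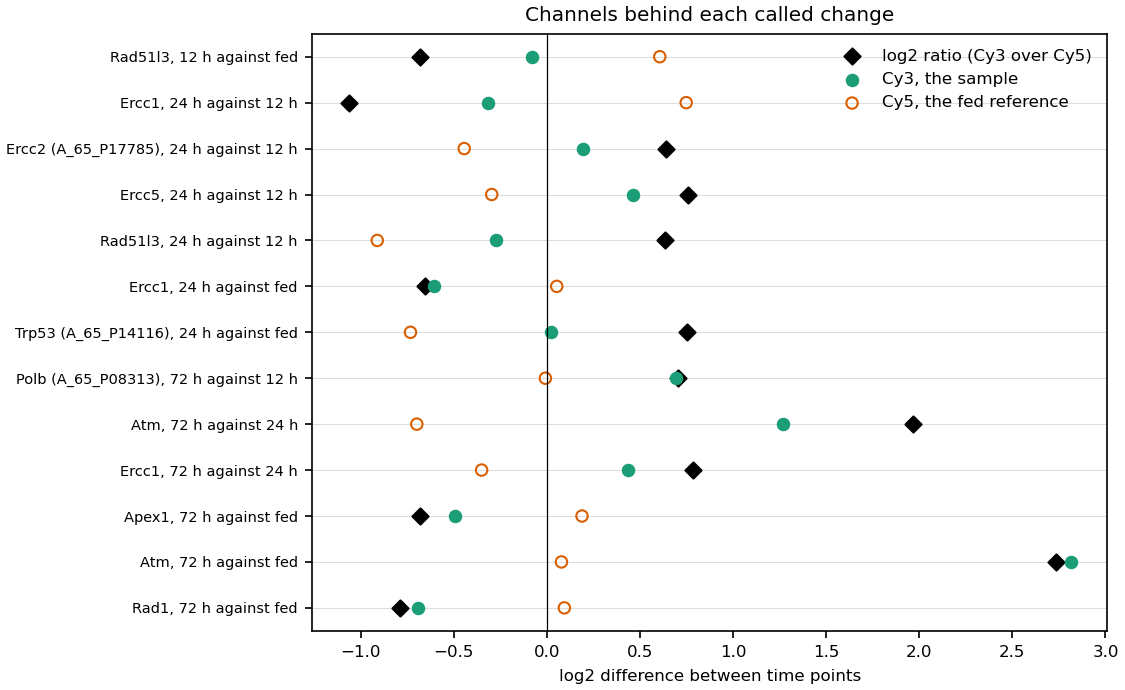
For each of the 13 called changes, the log2 difference between the 2 time points named on the left in the ratio (diamonds), in Cy3, which holds the sample (filled circles), and in Cy5, which holds the fed reference (open circles). Atm and Rad1 at 72 h against fed, Ercc1 at 24 h against fed and Polb at 72 h against 12 h have Cy5 near 0. For all the other calls the diamonds have the opposite sign to Cy5 and Cy3 is nearer to 0 than the diamonds. Cy5 differs by more than Cy3 for Rad51l3 and Trp53, and for Ercc1 and Ercc2 at 24 h against 12 h.

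Among the 7 recombination and crosslink repair probes the call was Rad51l3, now named Rad51d, which acts in homologous recombination. It was at -0.74, -0.64 and -0.91 at 12 h and at -0.10, -0.26 and 0.12 in fed tissue, without overlap. The change at 12 h was -0.68 ± 0.15 (SE, adjusted p = 0.0148 by limma), but Cy3 changed by -0.08 (adjusted p = 0.810) and the fed reference in Cy5 by 0.61 (adjusted p = 0.00891). Without fed replicate 1 or 3 the adjusted p was 0.0504 and 0.0584 (-0.69 and -0.59), and the call was also lost in the software's own ratio (-0.50, adjusted p = 0.147) and with only the arrays compared (adjusted p = 0.111). The difference between 12 h and 24 h of 0.64 ± 0.15 (SE, adjusted p = 0.0379 by limma) was -0.27 in Cy3 and -0.91 in Cy5, and was not called without 12 h replicate 3 or any 1 of the 24 h arrays (0.56 to 0.68, adjusted p = 0.0655 to 0.122), in the software's own ratio, with loess or median centring (0.40 to 0.41, adjusted p = 0.125 to 0.369), with the replicate block (adjusted p = 0.0711) or with only the arrays compared (adjusted p = 0.203). At 24 h and 72 h it stood at -0.20 to -0.07 and at -0.46 to -0.26. Fanca, Fancg, Rad51ap1 and Rad52 changed by -0.43 to 0.48 with no call against fed. The Fanca probe carries the name Zfp276 in the fed files, and the Fancg probe was not well above background on any fed array.

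For Brca2, a mediator of homologous recombination, and Fancc, a part of the Fanconi core complex, Cy3 and Cy5 shifted together, although Cy5 held the fed reference on every array. Mean Cy5 of Brca2 was 9.15 on the 24 h arrays and 6.73 on the fed arrays. That of Fancc was 7.39 on the 12 h arrays and 8.26 on the fed arrays. These contrasts cross the file formats. Fancc was lower in Cy3 by -1.32 at 12 h (adjusted p = 0.000204 by limma) and by -0.997 at 24 h, while its ratios changed by -0.44 and -0.05 and were not called. Brca2 was higher in Cy3 by 2.79 at 24 h (adjusted p = 0.00208), while its ratio changed by 0.37. In Cy3 alone 13 members were called at 24 h, where 24.6% of all probes were, and 1 at 72 h, where 8.65% were. The 5 probes of the mismatch repair genes Msh3, Msh5 and Msh6 ranged from -0.46 to 0.13 in ratio, and those of the end joining gene Xrcc4, the ubiquitin ligase Rad18 of damage bypass and the cohesin subunit Rad21 from -0.53 to 0.48, with no call against fed.

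Fed and 72 h tissue shared a file format, and fitting their 6 arrays alone called 9 members, beside 18.8% of all probes. Atm (2.74, adjusted p = 0.00667 by limma), Apex1 and Rad1 were among them, and the others were Ogg1 (-0.52, adjusted p = 0.0321), Rad17 (-0.48, adjusted p = 0.0324), Lig1 A_65_P02803, Adprtl2, Rad51ap1 and, as the other higher one, Xpc A_65_P20022 (0.48, adjusted p = 0.0293). The rise of this Xpc probe lay mainly in Cy5, the fed reference. Its mean Cy3 was 7.76 on the fed and 7.83 on the 72 h arrays, and its mean Cy5 was 7.996 and 7.581. For Rad17 mean Cy3 was 7.12 and 6.89, and mean Cy5 was 7.22 and 7.47. For Ogg1 they were 7.257 and 6.998 in Cy3, and 7.35 and 7.61 in Cy5. For Lig1 A_65_P02803, Adprtl2 and Rad51ap1 Cy3 shifted more than Cy5. Of the 9, 7 were lower at 72 h, and only Atm, Apex1 and Rad1 were also called over all 12 arrays. Of all probes called in this fit, 47.3% were higher. Over all 54 members, 25 changes at 72 h were positive and 29 negative, and a common direction of the members was not tested. The calls under the other settings are plotted for the 3 genes called over all 12 arrays.

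**Figure D5:**
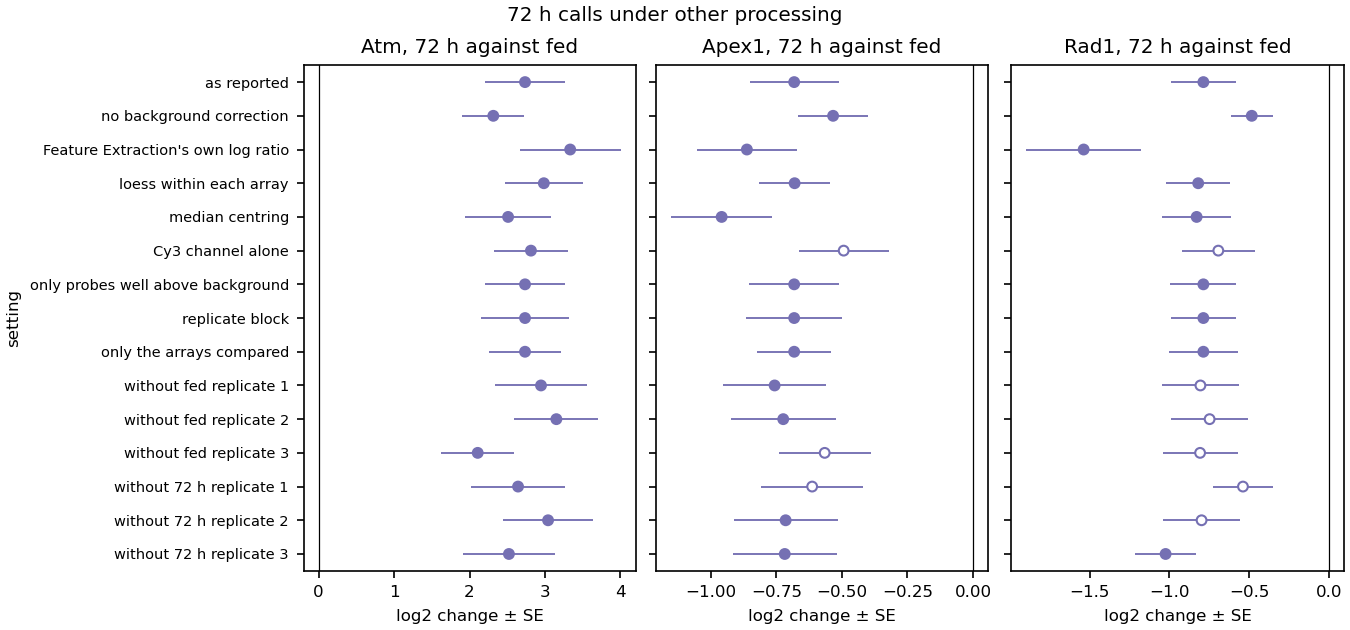
Log2 change at 72 h against fed with its SE for Atm, Apex1 and Rad1 (x axis, scales differ between panels) as reported and under the 14 alternatives (y axis), where filled points have an adjusted p under 0.05. Atm is filled throughout, from 2.11 to 3.33, whereas 3 points of Apex1 and 6 of Rad1 are open.

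Other genes of the damage response that the name rule does not cover were taken from a list of 88 genes, of which 54 were on the array with 70 probes. Of these probes, 5, 11 and 10 were called against fed after 12, 24 and 72 h, beside 10.9%, 10.1% and 10.6% of all probes, and the list median at 72 h was -0.05. The 4 higher ones at 72 h included Cdkn1a (1.44, adjusted p = 0.00286 by limma), which encodes the p53-induced cell cycle inhibitor p21, Dclre1a (1.18, adjusted p = 0.00111), a nuclease of crosslink repair, and the checkpoint kinase Chek1 (0.56). The 6 lower ones were both probes of Ube2a (-1.01 and -1.10) and Ube2n (-1.02), ubiquitin-conjugating enzymes of damage bypass, a probe of the p53 target Ccng1 (-1.10), a probe of Ccnh (-0.96), a subunit of the kinase part of TFIIH, and Nudt1 (-0.57), which clears oxidized nucleotides. The other probes of Ccng1 (-0.09, adjusted p = 0.846 by limma) and Ccnh (-0.40, adjusted p = 0.195) were not called.

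Many repair genes are used most in dividing cells, and markers of other cells were therefore counted. Of 30 probes for dividing crypt cells, 7 were lower and 1 higher at 72 h, where 10.6% of all probes were called, Pcna among the lower ones (-1.03, adjusted p = 0.00779 by limma). Their mean log2 ratio was -0.38 to -0.34 on the 72 h arrays and -0.13 to -0.01 on the fed arrays. Of 6 smooth muscle probes 4 were higher at 12 h and 2 at 72 h, with means of 0.59 to 1.43 at 12 h, -0.01 to 0.26 at 72 h and -0.67 to -0.02 in fed tissue. Of 8 probes for B and plasma cells, 2 were lower at 72 h, led by Igj (-3.22), with means of -0.71 to -0.52 against -0.34 to 0.12. The part of these cell types in the changes of Atm, Apex1 and Rad1 was not tested.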

How the data were processed

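The authors scanned 2-colour 60-mer oligonucleotide arrays and extracted the spots with Feature Extraction 6.1.1, and the deposited files hold, for each spot and channel, the median intensity of the spot and of its background before any correction. They also hold a log ratio whose decimal point had been moved in some cells (unit here: score, as deposited), used only as an alternative. The deposited value table repeats that ratio and was not used. The paper's methods call genes with an analysis of variance, which limma replaced here.

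Intensities were corrected with normexp (offset 50), the 24 channels were quantile normalized together, control spots, outlier spots and 91 spots without a stable name were left out, and spots of a probe were averaged. Log2(Cy3/Cy5) was fitted with limma 3.58.1 in R 4.3.3 over all 12 arrays with a mean per time point, 6 contrasts and an F-test over the 3 with fed, and p-values were adjusted over all probes with a value in the contrast (20272 to 20280). The code was tested on simulated data. By their titles and the paper's methods replicates are pools of different mice, although the labelling text of most arrays repeats 1 pair of mice, and the number of arrays and the low Cy5 signal limit the precision.

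Of the 54 members, 47 had a value on all 12 arrays and 26 were well above background in Cy3 on all of them, and 16 carry another name in the fed files than in the 12 h files. Among these names are those of other genes, Zfp276 for Fanca and Srrm1 for the Rad23b probe A_65_P10180. Current symbols came from the RefSeq gene table (GRCm38.p6). The genes named with values are all probes of Atm, Trp53, Polb, Nbn, Mre11a and the Gadd45 genes and every member called in a contrast, with called genes only from the other lists, and further members named for their role or because an alternative called them were chosen after their values were seen. Members, lists and tests were chosen with earlier results of these data known. Alternatives were no background correction, the software's own ratio, loess, median centring, Cy3 alone, bright probes only, only the arrays compared, a replicate block, leaving out each array, and an unadjusted p under 0.01 with at least 1.4-fold. Some genes are counted among the members and lists but not reported here by name. Figures were drawn with matplotlib 3.10.9.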

Additional observations from a re-analysis of the deposited data

Results flagged for a closer look

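The log2 ratio against the fed reference differed between fasting times, by the test of the difference itself, for 7 pairs of probe and contrast. Ercc1 was lower at 24 h than at 12 h by -1.06 on the log2 scale (adjusted p = 0.00811 by limma) and higher at 72 h than at 24 h by 0.79 (adjusted p = 0.0159). Atm was higher at 72 h than at 24 h by 1.96 (adjusted p = 0.0331). Between 12 h and 24 h the Ercc2 probe A_65_P17785 was higher in ratio by 0.64 (adjusted p = 0.0287), Ercc5 by 0.76 (adjusted p = 0.0386) and Rad51l3 by 0.64 (adjusted p = 0.0379). Between 12 h and 24 h the sample channel Cy3 alone changed by -0.32 for Ercc1, 0.19 for Ercc2, 0.46 for Ercc5 and -0.27 for Rad51l3, none of them called, so that Rad51l3 was higher in the ratio and not in Cy3. The Polb probe A_65_P08313 was higher at 72 h than at 12 h by 0.70 (adjusted p = 0.0243). Under the 14 alternatives the call was kept by 11 for Ercc1, 4 for Ercc2, 3 for Ercc5 and 4 for Rad51l3 at 24 against 12 h, by 9 for Ercc1 and 6 for Atm at 72 against 24 h, and by 8 for Polb. The contrasts of 72 h with 12 h or 24 h cross the 2 file formats.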

How the results depend on the processing

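The change of Atm at 72 h against fed was called under all 14 alternatives, and those of Apex1 and Rad1 kept their direction under all 14. The numbers of members called at 12, 24 and 72 h against fed, 24 against 12 h, 72 against 12 h and 72 against 24 h were 1, 2, 3, 4, 1 and 2, and 10 passed the F-test. With each array left out in turn they ranged from 0 to 7, 0 to 1, 1 to 3, 1 to 8, 0 to 9 and 0 to 2, and those of the F-test, an alternative chosen after seeing the data, from 2 to 16. Shares of all probes stand in brackets. Without background correction 1 was called at 24 h against fed (7.5%), 2 at 24 against 12 h (1.79%) and 5 by the F-test (17.6%). The software's own ratio gave 0 at 12 h (7.86%), 8 at 24 h (16.1%), 1 at 24 against 12 h (1.23%) and 0 at 72 against 12 h (7.27%). Loess gave 2 at 12 h (11.3%), 9 at 24 h (19.7%), 2 at 24 against 12 h (2.19%), 2 at 72 against 12 h (10.7%) and 4 at 72 against 24 h (14.9%). Median centring gave 6 (14.9%), 8 (19.3%), 1 (0.996%), 0 (3.27%) and 1 (6.18%) in the same contrasts. Cy3 alone gave 5 at 12 h (15%), 13 at 24 h (24.6%), 1 at 72 h (8.65%), 2 at 24 against 12 h (8.2%), 6 at 72 against 12 h (18.2%) and 16 by the F-test (36.6%). Fitting only the arrays compared gave 0 (0%), 5 (16%), 9 (18.8%), 0 (0.118%), 0 (2.99%) and 9 (22.1%) in the 6 contrasts. An unadjusted p under 0.01 with at least 1.4-fold gave 3 at 12 h (13.9%) and 4 at 24 h (13.1%). Replicate numbers did not pair the pools, since deviations of same-numbered arrays correlated with a mean r of -0.0422 (18 pairs, -0.297 to 0.128), and with the replicate block 1 was called at 24 h against fed (7.36%), 1 at 24 against 12 h (1.93%), 1 at 72 against 24 h (8%) and 6 by the F-test (18.1%). The cause of these differences was not tested.

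Values that changed sign were not called under the setting that changed it. In Cy3 alone these were Apex1 (0.24), Ercc1 (-0.29), Gadd45g (-0.14) and Ercc2 A_65_P17785 (0.0020) at 12 h, Polb A_65_P08313 (0.085) at 24 h, Trp53 A_65_P10093 (-0.095), Ercc1 (-0.17) and Ercc2 (0.089) at 72 h, and Rad51l3 between 12 h and 24 h (-0.27), the 1 of them called in the ratio. Trp53 A_65_P10093 at 24 h was 0.10 without background correction, 0.030 in the software's ratio, 0.017 with loess, 0.065 with the replicate block and -0.065 to 0.0059 with an array left out. Rad51l3 at 24 h was 0.028 without background correction and -0.14 to 0.051 with an array left out. With median centring Nbn at 24 h was -0.033, and Trp53 A_65_P10093, Polb A_65_P20409 and Ercc2 at 72 h were -0.087, 0.064 and 0.092. Polb A_65_P20409 at 72 h was 0.067 with loess and -0.39 to 0.037 with an array left out. Cy5 lay near its background and 8 members were not well above background in Cy3 on any array of some time point, which limits what these probes can show.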
